A study of Homo sapiens with 6 samples.

Results

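Leukotriene and prostaglandin pathway genes were followed in HMC3, an established human line labelled as microglia that carries the SV40 large T antigen, with and without 24 h of the cytokine interleukin-33 (IL-33). The set was selected on a measured value: the difference of LTB4R in this same comparison was known, and the other members were chosen by their place in the pathway. It held 10 genes of the 27469 with values in the count table, matched by gene symbol. They encode both receptors of leukotriene B4 (LTB4R and LTB4R2), 3 proteins of leukotriene synthesis (ALOX5, ALOX5AP and LTA4H), the cyclooxygenases (PTGS1 and PTGS2) and the 3 terminal synthases named for prostaglandin E2 (PTGES, PTGES2 and PTGES3). All 10 had a row in the table, and 5 of them (LTB4R, LTA4H, PTGES, PTGES2 and PTGES3) passed the low-count filter and were tested. The Control group and the IL-33 group had 3 libraries each, all of the same line, and the IL-33 group had the cytokine for 24 h. Not given in the sources used here: the concentration of IL-33, the vehicle, and whether each library had its own culture. The p-values therefore measure only the spread among the libraries, which may be technical. In bulk RNA fewer cells with a messenger and less of it per cell cannot be told apart.

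Both pathways start from arachidonic acid that phospholipases release from membranes. 5-Lipoxygenase (ALOX5), helped by its activating protein FLAP (ALOX5AP), turns it into leukotriene A4, which LTA4H hydrolyses to leukotriene B4, a chemoattractant of leukocytes. The cyclooxygenases turn it into prostaglandin H2, from which terminal synthases make prostaglandin E2, a mediator of fever, pain and immune regulation. In the brain, microglia are known as a source of such lipid mediators, and PTGS2 is a textbook gene of their response to inflammatory stimuli.

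Library totals ran from 5739947 to 10217529 counts, so 3 counts, the limit that a count of 0 allows, came to between 0.293 and 0.543 CPM (counts per 1000000, on TMM-scaled library sizes). Control 3 had the fewest counts and stood apart from the rest, at 55.0 on the first principal component where the other 5 libraries lay between -18.0 and 0.86. Its log2 levels correlated with the others at a mean of 0.956, against 0.967 to 0.970 for them. Of 18 microglia and macrophage markers, 11 had 0 counts in all libraries, among them ITGAM, P2RY12, TMEM119, CX3CR1, SPI1 and TYROBP, and the summed level of the list was 3.57 to 8.32 CPM in Control and 3.89 to 6.84 CPM after IL-33. The defining microglial markers just named were thus not detected, which goes against the label. The listed markers with counts had 149 (CD68), 67 (CD14), 37 (TREM2), 25 (CSF1R), 9 (AIF1), 3 (FCGR1A) and 2 (PTPRC) in all. Of these CD68 and CD14 passed the low-count filter. Of 10 granulocyte and mast cell markers, 7 had 0 counts, and nearly all of the rest was the receptor gene KIT at 48.5 CPM. The 9 fibroblast and mesenchymal markers summed to 5567 to 6599 CPM in Control and 5814 to 6389 CPM after IL-33. Most of this was FN1 (mean 3672 CPM), VIM (1553 CPM) and COL1A1 (721 CPM). In the same list COL3A1 and LUM had 0 counts, and DCN had 14 in all. IL1RL1, which encodes the IL-33 receptor ST2, had 11 counts over the 6 libraries, and IL1RAP, its partner, 299. Those of IL1RL1 came from 2 libraries only, 3 counts in Control and 8 in IL-33 2.

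The receptor gene LTB4R was the member on which the results turned, and the sequence before its RefSeq start is shown beside that of PTGS2, the inducible member that was nearly silent here. The stretches come from RefSeq on GRCh38.p14, in which 9 of the 10 members had a promoter entry, and run 5′ to 3′ on the strand of the gene. The RefSeq start of LTB4R lies downstream of the first GENCODE 29 exons of the gene, so this window falls within the longer gene model, in an intron. Capitals mark the motif TATAAA, the core of a TATA box.
LTB4R, chr14:24312857-24313106, plus strand, the 250 bases before the RefSeq start: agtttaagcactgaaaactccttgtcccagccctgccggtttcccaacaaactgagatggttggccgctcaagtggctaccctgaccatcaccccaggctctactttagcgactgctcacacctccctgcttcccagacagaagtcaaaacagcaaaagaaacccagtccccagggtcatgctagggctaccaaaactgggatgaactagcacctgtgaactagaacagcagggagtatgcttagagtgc
PTGS2, chr1:186680428-186680621, minus strand, positions -198 to -5 from the start, without bases that lie in annotated exons: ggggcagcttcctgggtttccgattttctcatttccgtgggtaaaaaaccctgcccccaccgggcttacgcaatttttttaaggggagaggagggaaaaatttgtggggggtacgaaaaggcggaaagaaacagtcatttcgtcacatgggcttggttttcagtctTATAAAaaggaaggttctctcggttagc

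The motifs searched, on both strands of the 250 bases before each start, were TATAAA, the GC box GGGCGG, and a loose form of the NF-kB site (GGGA, any 4 bases, CC). The LTB4R window held none of them and was 52.4% G and C. The PTGS2 window held TATAAA at position -32 and GGGACTACCC at position -224, outside the stretch printed, with positions counted to the first base of the match. TATAAA was also found in PTGS1 (-208), there on the opposite strand (TTTATA on the strand of the gene). The NF-kB form was found in LTB4R2 (-50), PTGS1 (-55) and PTGES3 (-121). GC boxes numbered 4 in PTGES3, 4 in the first of the PTGES2 windows and 2 in PTGES, none of which held TATAAA. The other PTGES2 windows held 1 each. PTGS1 held 1 in each of its 2 windows (-58 and -202), and the window with -58 also held the TATAAA on the opposite strand. Among 35116 RefSeq promoter windows of the same length, 10.7% held TATAAA, 42.6% GGGCGG and 22.6% the NF-kB form. These matches describe letters and were not tested as sites of binding.

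LTB4R encodes BLT1, the high-affinity receptor of leukotriene B4, and lies on chromosome 14 from 24311450 to 24318036 (GENCODE 29, GRCh38, plus strand). It measured 8.64, 10.7 and 21.5 CPM in Control 1, 2 and 3 (87, 89 and 119 counts) and 19.4, 21.4 and 36.2 CPM in IL-33 1, 2 and 3 (182, 219 and 307 counts). Controls 1 and 2 were the lowest libraries and IL-33 3 the highest, while Control 3 lay above IL-33 1 and 2, so the groups overlapped. The group means were 13.6 ± 6.93 CPM in Control and 25.7 ± 9.18 CPM after IL-33 (SD, n = 3 per group), a log2 fold change of 0.94 ± 0.34 (SE) with a 95% interval from 0.21 to 1.67. This value did not pass the threshold of 0.05 (adjusted p = 0.999, edgeR quasi-likelihood, Benjamini-Hochberg), although it ranked 65th by p among the 12125 genes tested. LTB4R was placed in the set with its value in this comparison known, so its difference is a description and supports nothing by itself.

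The call on LTB4R turned on Control 3. Without that library the log2 fold change was 1.41 ± 0.25, with an adjusted p of 0.00671 by edgeR, 0.0297 by DESeq2 and 0.0178 by limma-voom on the same filtered genes. DESeq2 run on all genes with a count gave an adjusted p of 0.0723 without Control 3. LTB4R was chosen on this comparison, and the library left out is the Control library with its highest level. These adjusted p-values are therefore a description and support nothing by themselves. With all 6 libraries, 0 of the settings tried called LTB4R, the smallest adjusted p being 0.183 by edgeR without the low-count filter. Without IL-33 3, its highest library, the log2 fold change was 0.61 ± 0.33. It was 0.69 ± 0.33 without Control 1 and 0.80 ± 0.39 without Control 2. Without IL-33 1 it was 1.11 ± 0.36, and without IL-33 2 1.06 ± 0.38. None of these fits called LTB4R. Control 3 also stood apart across all genes, and its part in the LTB4R value was not tested beyond leaving it out.

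**Figure D1:**
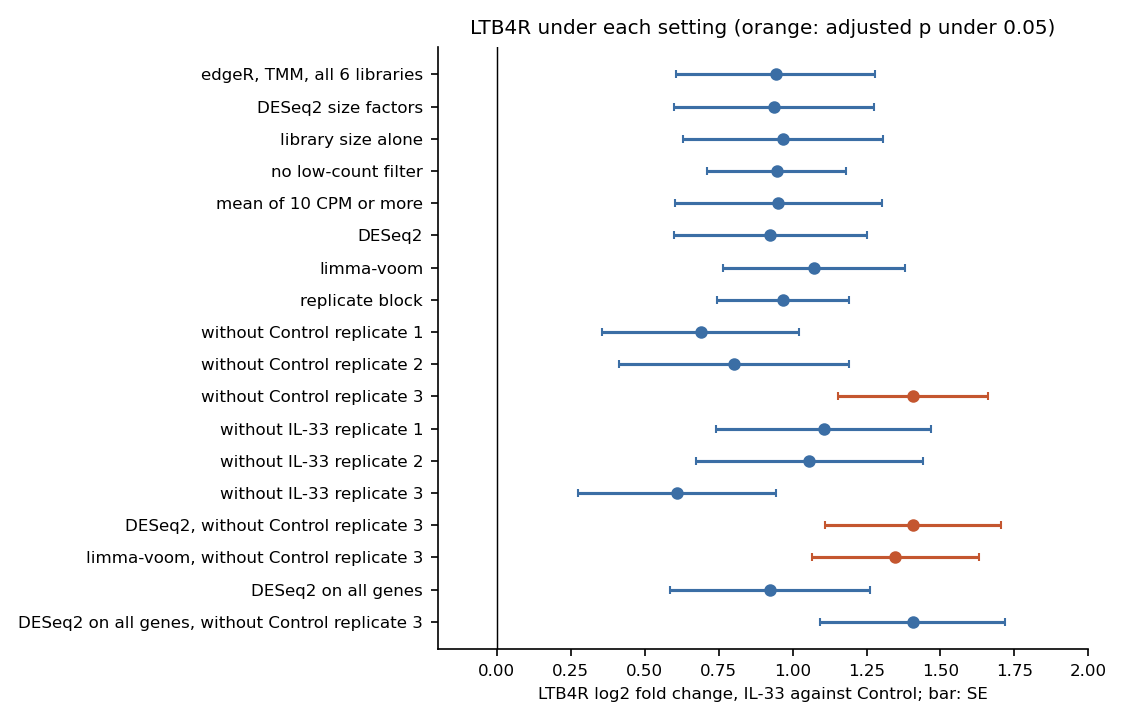
LTB4R log2 fold change of IL-33 against Control (x axis, log2 scale) under each setting (y axis), with bars for the SE and orange points for an adjusted p under 0.05. All points lie above 0, from 0.61 without IL-33 replicate 3 to 1.41 without Control replicate 3, and the orange points are the edgeR, DESeq2 and limma-voom fits on filtered genes without Control replicate 3.

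Ratios of counts within a library are moved by no scaling. Counts of LTB4R per count of LTA4H, the enzyme that makes the ligand, were 0.164, 0.227 and 0.551 in Control and 0.389, 0.404 and 0.701 after IL-33. Control 3 was again above IL-33 1 and 2. Per count of PTGES2 the values were 0.225, 0.258 and 0.395 in Control and 0.455, 0.530 and 0.895 after IL-33. On this measure, unlike the level itself, the groups did not overlap. PTGES2 was itself highest in Control 3, which lowers the ratio in the library that made the LTB4R levels overlap. The separation is therefore a description and supports nothing by itself. Within-group spread of LTB4R was wide: the biological coefficient of variation fitted by edgeR was 27.7%, against a median of 17.8% over tested genes.

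LTB4R2 encodes BLT2, the low-affinity receptor of the same ligand, and lies directly upstream, from 24305734 to 24312053. It had 6, 11 and 1 counts in Control and 8, 8 and 4 after IL-33, or 0.60, 1.32 and 0.18 CPM and 0.85, 0.78 and 0.47 CPM. The sums were 18 and 20 counts, the groups overlapped, and the gene did not pass the low-count filter. Without the filter its log2 fold change was -0.02 ± 1.28 (adjusted p = 0.999 by edgeR), with a 95% interval from -2.53 to 2.49. LTB4R took between 89.0% (exact 95% interval 81.2 to 94.4%, Control 2) and 99.2% (95.4 to 99.98%, Control 3) of the counts of both receptors. These intervals cover counting error only, not reads from bases that both genes share.

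The receptor genes overlap in the annotation. They share 355 exon bases on the same strand, from 24311450 to 24311804, where LTB4R starts before LTB4R2 ends. Position alone cannot assign reads from that stretch to either gene, and it lies near the 3′ end of LTB4R2, where tags of that gene may fall. The last exon of LTB4R, where a 3′ tag is expected to fall, runs from 24315637 to 24318036 and starts 3584 bases after the end of LTB4R2. On the opposite strand CIDEB overlaps LTB4R2, and ADCY4 lies past the end of LTB4R. Both had 0 counts in all 6 libraries. NOP9, an upstream gene on the same strand that shares 304 exon bases with LTB4R2, measured 37.6 ± 6.28 CPM in Control and 40.6 ± 2.89 CPM after IL-33, a log2 fold change of 0.12 ± 0.17.

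**Figure D2:**
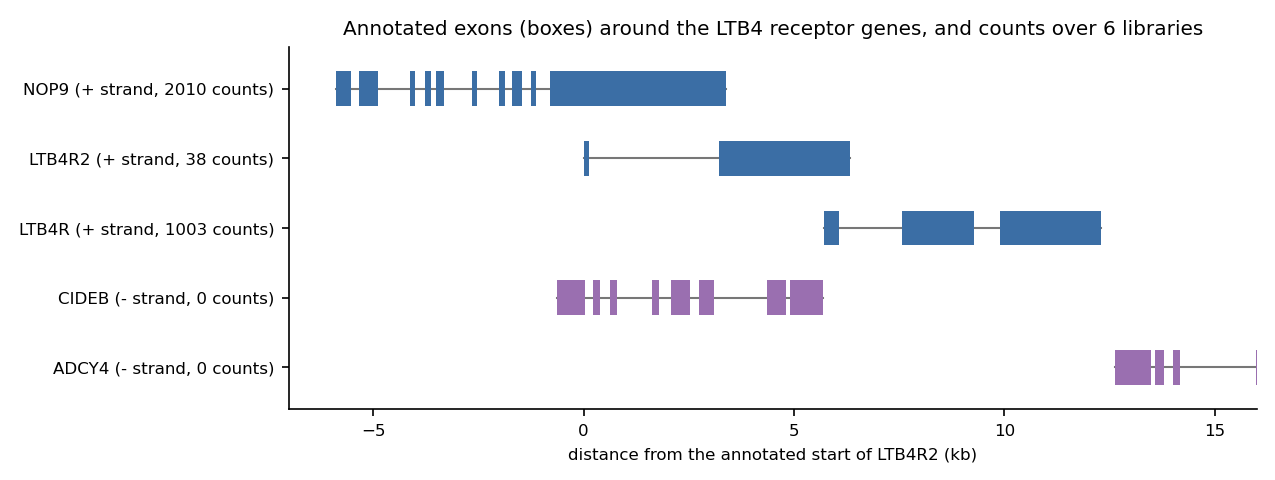
Annotated exons (boxes) of the genes around the leukotriene B4 receptors by distance from the start of LTB4R2 (x axis, kb), in blue for the plus strand and purple for the minus strand, with ADCY4 cut at the right edge. Counts summed over the 6 libraries were 1003 for LTB4R, 38 for LTB4R2, 2010 for NOP9 and 0 for CIDEB and ADCY4.

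The first steps of leukotriene synthesis were at or near the detection limit. ALOX5, the 5-lipoxygenase (chromosome 10, 45374176 to 45446119), had no count in any of the 6 libraries, and a count of 0 allows a level of up to 0.543 CPM in Control 3 and 0.293 CPM in IL-33 2. ALOX5AP, the FLAP gene (chromosome 13, 30713478 to 30764426), had 8 counts, all of them from IL-33 2. No fold is given for either, since ALOX5 had no count and ALOX5AP none in Control, and a fall in them could not have been seen at this depth.

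LTA4H, which makes leukotriene B4 from leukotriene A4 and also acts as an aminopeptidase, was well measured (chromosome 12, 96000828 to 96043520, minus strand). It stood at 52.7, 47.1 and 39.1 CPM in Control and 49.9, 52.9 and 51.6 CPM after IL-33. Control 3 was the lowest library and the groups overlapped. The log2 fold change was 0.15 ± 0.15 with a 95% interval from -0.17 to 0.46 (adjusted p = 0.999 by edgeR). Messengers for the last enzyme of leukotriene B4 synthesis and for its receptor BLT1 were thus counted in libraries in which ALOX5 had no count. Antisense transcripts are annotated opposite LTA4H, and without a stated strand setting their reads cannot be told apart from it.

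The cyclooxygenases both fell short of the low-count filter. PTGS1, the constitutive form COX-1 (chromosome 9, 122370530 to 122395703), had 32, 8 and 6 counts in Control and 9, 2 and 8 after IL-33. That was 3.18, 0.96 and 1.09 CPM against 0.96, 0.20 and 0.94 CPM. Control 1 held 32 of its 65 counts, and the highest IL-33 library (0.959 CPM) lay just under the lowest Control library (0.962 CPM), a gap well inside counting error. Without the filter its log2 fold change was -1.33 ± 0.98 (adjusted p = 0.995 by edgeR). Among the tested genes, groups that did not overlap after IL-33 below were found for 3.51%.

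PTGS2, the inducible form COX-2 and a target of NF-kB (chromosome 1, 186671791 to 186680427), had 1, 14 and 0 counts in Control and 0, 1 and 2 after IL-33. Control 2 held 14 of its 18 counts, and the other 5 libraries had at most 2. Without the filter its log2 fold change was -2.32 ± 1.99 (adjusted p = 0.995 by edgeR). In CPM it was 0.10, 1.68 and 0 in Control and 0, 0.10 and 0.24 after IL-33. The measured PTGS2 level in the libraries given IL-33 for 24 h was thus at most 0.24 CPM. That is under the 0.293 to 0.354 CPM that 3 counts give in those libraries. It is no upper bound on the level: the count of 0 in IL-33 1 alone allows up to 0.320 CPM. Earlier times were not measured.

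Of the prostaglandin E2 synthases all 3 passed the low-count filter. PTGES3, also known as p23 and a co-chaperone of HSP90 as well as a cytosolic synthase, was the most abundant member (chromosome 12, 56663341 to 56688408). It measured 457, 434 and 426 CPM in Control and 419, 444 and 453 CPM after IL-33. The libraries lay within 1.09-fold of each other, and the log2 fold change was 0.00 ± 0.09 with a 95% interval from -0.19 to 0.19 (adjusted p = 0.999 by edgeR). The annotation holds 5 PTGES3 pseudogenes, none of which had a row in the count table, so how reads shared with them were treated is not known.

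PTGES2, a membrane-associated synthase (chromosome 9, 128120693 to 128128462), measured 38.4, 41.5 and 54.5 CPM in Control and 42.6, 40.3 and 40.4 CPM after IL-33. Control 3 was the highest library and the other 5 lay close together. The log2 fold change was -0.12 ± 0.16, with a 95% interval from -0.45 to 0.22, and was 0.04 without Control 3.

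PTGES, the microsomal synthase mPGES-1 that is coupled to COX-2 and induced with it in inflammation (chromosome 9, 129738331 to 129753047), was the lowest of the 3. It had 31, 7 and 10 counts in Control and 15, 12 and 11 after IL-33, or 3.08, 0.84 and 1.81 CPM and 1.60, 1.17 and 1.30 CPM. Control 1 was the highest and Control 2 the lowest library, with all IL-33 libraries between them. The log2 fold change of -0.51 ± 0.69 had a 95% interval from -1.96 to 0.95 and was 0.06 without Control 1. PTGES3 took 88.3% to 91.7% of the counts of the 3 synthases and PTGES 0.18% to 0.62%, and a 3′ tag count gives the number of messengers read, not synthase activity.

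**Figure D3:**
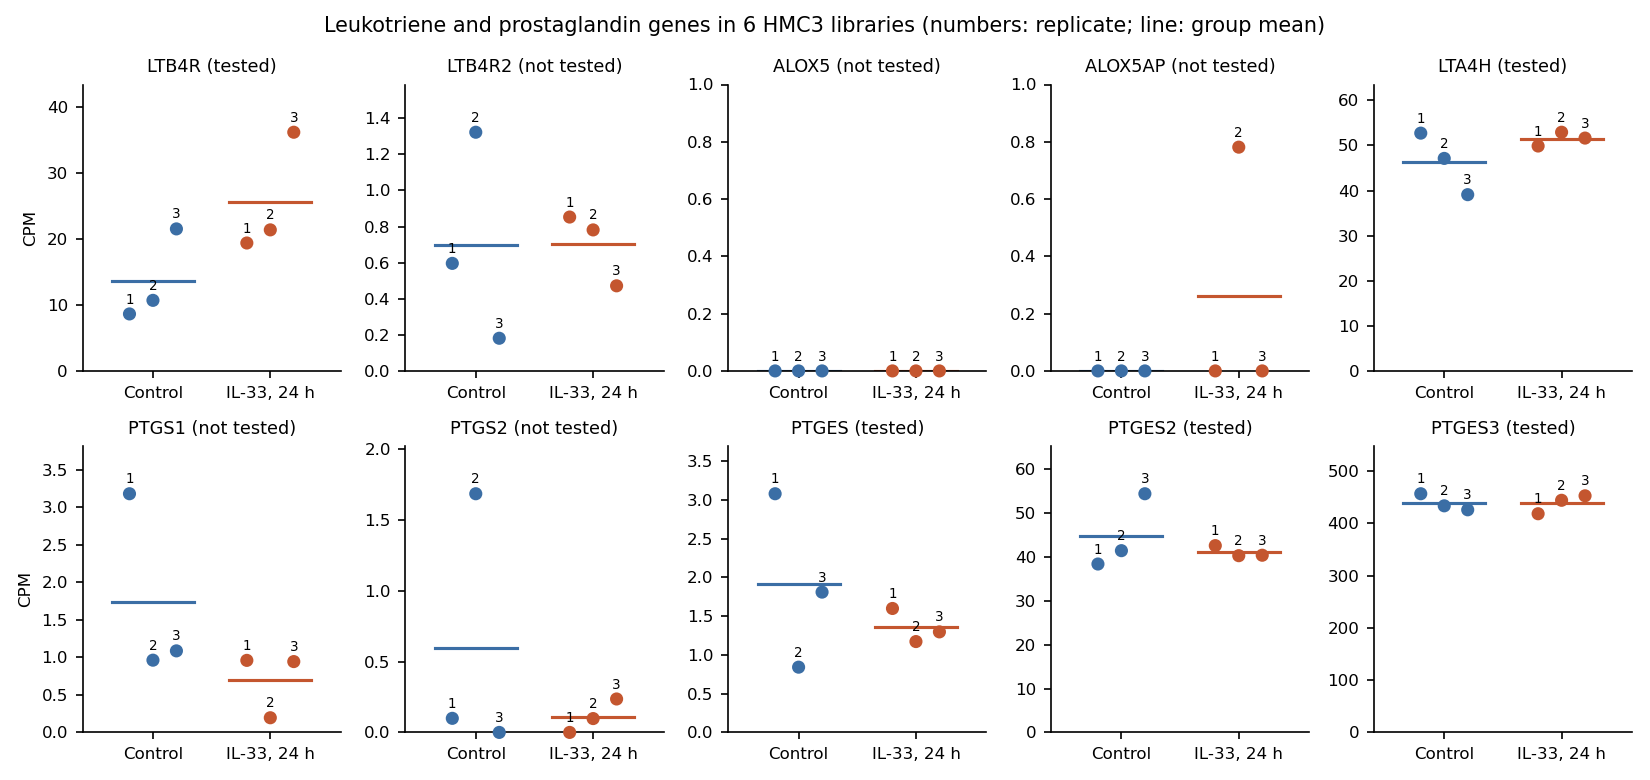
Level of each of the 10 genes in CPM (y axis, from 0, scaled per gene) in the 3 Control libraries (blue) and the 3 libraries given IL-33 for 24 h (orange), with replicate numbers at the points and lines at group means. LTB4R runs from 8.64 to 36.2 CPM with Control 3 among the IL-33 libraries, PTGES3 stays between 419 and 457 CPM, and ALOX5 is at 0 in every library.

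Of the 5 tested members 0 passed the test at an adjusted p of 0.05, where over all 12125 tested genes 0 did (0.00%), the smallest adjusted p being 0.643 (edgeR quasi-likelihood, Benjamini-Hochberg). At an unadjusted p under 0.05 there was 1 member, LTB4R, beside 2.43% of all tested genes. By DESeq2 and limma-voom 0 members passed with all libraries. Above 0 lay 2 of the 5 log2 fold changes, against 48.9% of all tested genes. The members' median was 0.00, beside -0.01 for all tested genes. The 95% interval lay within -1 to 1 for LTA4H, PTGES2 and PTGES3, and for 73.4% of all tested genes. Groups that did not overlap were found for 0 of the 5, against 8.06%. The members that passed the low-count filter are not all members, and no statement on the other 5 follows from these counts.

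By mean level in CPM over the 6 libraries the order was PTGES3 (439), LTA4H (48.9), PTGES2 (43.0), LTB4R (19.6), PTGES (1.63), PTGS1 (1.22), LTB4R2 (0.70), PTGS2 (0.35), ALOX5AP (0.13) and ALOX5 (0). A 3′ tag count does not grow with transcript length, although the yield of tags can differ between genes. LTA4H was above PTGES2 in 5 of 6 libraries and PTGES above PTGS1 in 4 of 6, and the ranges of both pairs overlapped. LTB4R was below PTGES2 and above PTGES in all 6. From PTGES downward, genes next to each other in this order cannot be ranked at these counts. Over the 6 libraries LTB4R had Pearson correlations of -0.08 with LTA4H, -0.31 with PTGES, 0.27 with PTGES2 and -0.09 with PTGES3 on the log2 CPM scale, all sharing the same libraries and scaling.

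The 5 genes at 10 CPM or more whose log2 levels were most like LTB4R over the 6 libraries were AACS (Pearson's r = 0.986), SNRNP35 (0.982), PCED1A (0.976), CNTROB (0.969) and SRSF5 (0.963). They are the top of 8330 genes compared over 6 points. In SNRNP35, a protein gene of the minor spliceosome, the levels were 15.5, 16.5 and 24.8 CPM in Control and 24.2, 23.1 and 28.9 CPM after IL-33. In each of the 5 genes Control 3 lay above Controls 1 and 2 and IL-33 3 was the highest library, as in LTB4R. They were picked for this likeness, so the shared pattern is no separate result. Their log2 fold changes were smaller, from 0.11 in AACS to 0.44 in SNRNP35.

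The rest of the pathway was read from 53 further genes in 7 lists. At most 3 counts in each library were found for 21 of them, including 13 with 0 counts in every library, and 20 passed the low-count filter. Of these 20, 0 passed the test in either direction, and the median log2 fold change was -0.04. Above 0 lay 5 and below it 15, where 48.9% of all tested genes lay above 0. Most of the 20 were smaller than their SE, so their signs are not settled, and the lists were not tested as sets. Groups did not overlap in 2 of them, against 8.06% of all tested genes: AKR1B1, in which the IL-33 libraries were higher (4.54% of all tested genes), and PTGER2, in which they were lower (3.51%). For each tested gene named below the adjusted p was 0.999 by edgeR.

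Genes that free arachidonic acid or put it back into phospholipid were the list with the most tested members, 9 of 15, with 1 above 0 and 8 below (median -0.04). Every log2 fold change among these 9 was smaller than its SE. The cytosolic phospholipase gene PLA2G4A, whose enzyme is the main source of arachidonic acid for eicosanoids, had 8 counts in all. PLA2G12A, a secreted phospholipase, had a log2 fold change of -0.17 ± 0.22, the calcium-independent PLA2G6 0.35 ± 0.80, and DAGLA, a diacylglycerol lipase, -0.32 ± 0.55. MGLL, which hydrolyses 2-arachidonoylglycerol and supplies arachidonic acid in brain, measured 67.5, 72.9 and 113 CPM in Control and 77.6, 78.7 and 79.2 CPM after IL-33. Its log2 fold change was -0.10 ± 0.16 with Control 3 as the highest library, and 0.16 without it.

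In the cysteinyl leukotriene branch LTC4S, the leukotriene C4 synthase, had 1 count. MGST2, a microsomal glutathione transferase that can also make leukotriene C4, measured 6.26, 12.3 and 3.62 CPM in Control and 14.8, 14.4 and 10.6 CPM after IL-33. Control 2 lay above IL-33 3, so the groups overlapped, and the log2 fold change was 0.82 ± 0.35 with a 95% interval from 0.09 to 1.56. Without Control 2 it was 1.39, and without Control 3, here the lowest library, 0.53. ABCC1, the exporter of leukotriene C4, had -0.19 ± 0.36. The receptor genes CYSLTR1, CYSLTR2 and OXGR1 had 0 counts, and of the 5 other lipoxygenase genes 0 passed the low-count filter.

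Among synthases of other prostanoids, AKR1B1, an aldose reductase that can form prostaglandin F2α, measured 106 ± 4.46 CPM in Control and 116 ± 6.56 CPM after IL-33, a log2 fold change of 0.13 ± 0.11. CBR1, a carbonyl reductase, had -0.02 ± 0.13 and PRXL2B, a prostamide synthase gene listed under its older symbol, -0.08 ± 0.20. Of the transport and breakdown genes, the prostaglandin exporter ABCC4 had -0.34 ± 0.22, the reductase PTGR1 -0.15 ± 0.17 and PTGR2 -0.02 ± 0.41, while HPGD, which starts prostaglandin breakdown, had 6 counts.

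Among prostanoid receptors, 3 of 9 passed the low-count filter. PTGER2, the EP2 receptor of prostaglandin E2, measured 4.67, 3.25 and 2.35 CPM in Control and 2.13, 1.17 and 1.53 CPM after IL-33. The counts were 47, 27 and 13 in Control and 20, 12 and 13 after IL-33. All IL-33 libraries were below the Control libraries in CPM, by a gap to Control 3 well inside counting error. The log2 fold change of -1.10 ± 0.57 had a 95% interval from -2.30 to 0.10. PTGER4, the EP4 receptor, had 0.18 ± 0.46 and TBXA2R, the thromboxane receptor, 0.05 ± 0.38. PTGFR, the prostaglandin F2α receptor, was outside the naming rule and chosen after its values were seen. It had 3, 2 and 0 counts in Control and 11, 8 and 8 after IL-33 and did not pass the low-count filter. Its IL-33 libraries lay above its Control libraries in CPM, as was found for 4.54% of all tested genes. Picked for these values, it is a description only.

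**Figure D4:**
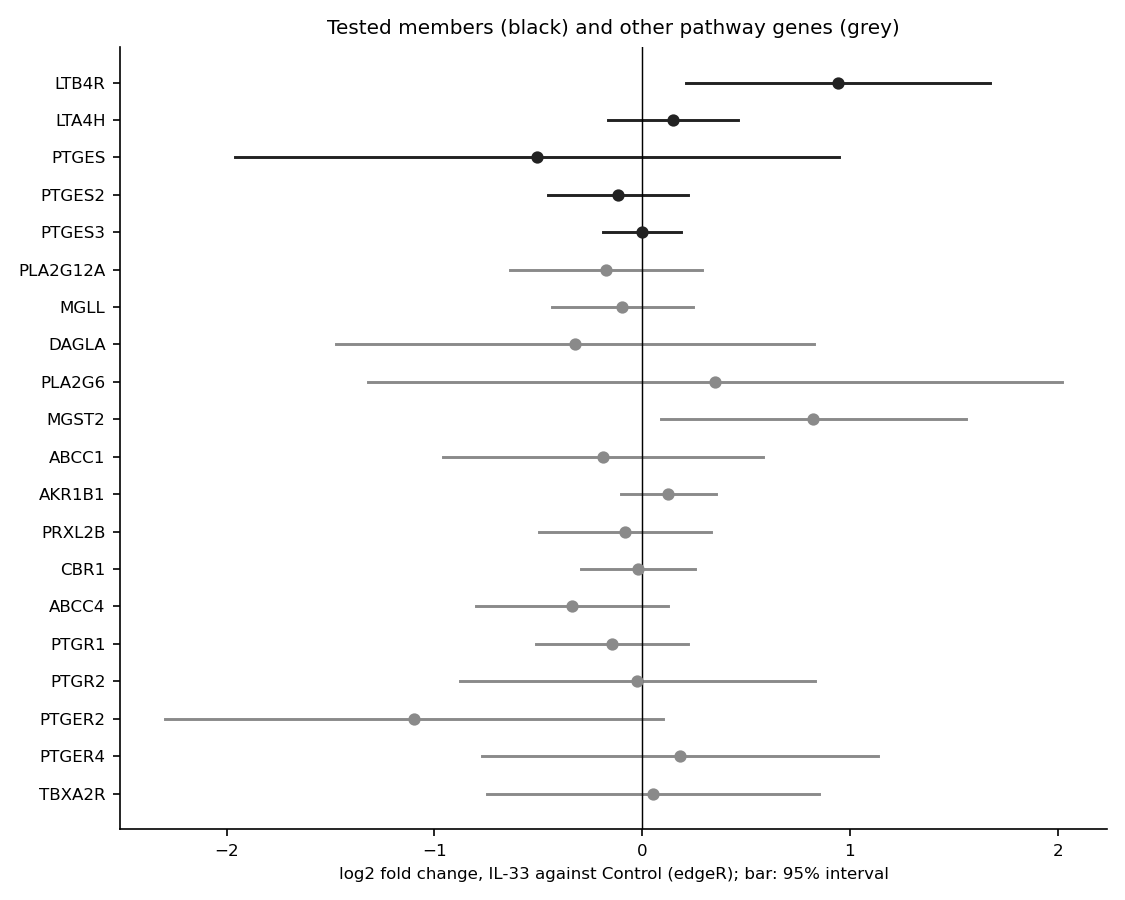
Log2 fold change of IL-33 against Control with 95% intervals (x axis) for the 5 tested members (black) and the other pathway genes named in the text (grey). The intervals of LTB4R and MGST2 lie above 0 (from 0.21 and 0.09), and those of the other genes include 0. The intervals are not adjusted for the number of genes tested, and both genes had an adjusted p of 0.999 by edgeR.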

How the data were processed

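RNA was measured by 3′ sequencing of 3 Control and 3 IL-33 libraries of HMC3, made per the labels' protocols with TRIZOL and the Lexogen QuantSeq FWD kit, which keeps the strand. The authors deposited whole-number read counts per gene symbol. Per the submitters' processing notes the tools were STAR 2.7.5a, HTSeq 0.6.1 and edgeR and the build hg38, without roles. Not given in the sources used here: annotation, strand setting and filters.

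Of 27470 rows, 1 was empty. filterByExpr (count minimum 10, total minimum 15) left 12125 genes with 99.9% of the counts. IL-33 was compared with Control over all of them by edgeR 4.0.16 in R 4.3.3 (TMM, robust quasi-likelihood test, Benjamini-Hochberg at 0.05). DESeq2 1.42.0, limma-voom (limma 3.58.1), other scalings and filters, a replicate block and leaving out each library were alternatives. Correlations used log2 CPM with a prior count of 2. Replicates differed by more than sampling noise. The procedure was tested on simulated data. Positions are from GENCODE 29, promoters and 2 older symbols from RefSeq, and figures were drawn with matplotlib 3.10.9.

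The members and lists were chosen with earlier results of these data known. The naming rule took all members, up to 4 tested genes with the smallest p per list, overlapping genes, and the 5 genes most like LTB4R.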

Additional observations from a re-analysis of the deposited data

How the results depend on the processing

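The count of 0 changed members held under every setting with all libraries. The count over all genes was 3 without the low-count filter and 1 by DESeq2. With a library left out it ran from 0 to 15 genes (6 by edgeR, 2 by DESeq2 and 15 by limma-voom, each without Control 3), and the count of members from 0 to 1, LTB4R without Control 3. Among the other pathway genes it was 0 throughout. DESeq2 on all genes was added after the data were seen and called 0 members, also without Control 3. The labels do not say that replicate numbers pair the libraries, and correlations of same-numbered deviations were -0.09, 0.03 and -0.14. With the replicate block 0 genes were called, the log2 fold change of LTB4R was 0.97 and that of PTGR2 0.0025, against -0.02. Over 20 named genes and 333 values, 302 kept direction and side of the threshold and 28 changed sign. PTGES3, at 0.00, was 0.010 by library size alone, 0.0010 without the low-count filter and 0.0048 at 10 CPM or more. With a library left out the log2 fold changes that changed sign ran from -0.025 to 0.031 for PTGES3, -0.86 to 0.063 for PTGES, -0.22 to 0.046 for PTGES2 (0.041 to 0.046 without Control 3, where edgeR and DESeq2 gave 0.042), -0.24 to 0.17 for MGLL (0.16), -0.69 to 0.060 for ABCC1, -0.23 to 0.012 for PRXL2B, -0.058 to 0.049 for CBR1, -0.19 to 0.20 for PTGR2, -0.20 to 0.59 for PTGER4 and -0.14 to 0.33 for TBXA2R. Without the low-count filter 9 of 10 members had a fit, and 0 passed.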
